A study of Mus musculus with 8 samples.

Results

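The EGF receptor family and its ligands were followed in mouse pancreatic tumors that grew in the pancreas or in the liver. The 10 members were taken by gene symbol and comprise 3 receptors (Egfr, Erbb2, Erbb3) and 7 ligands (Areg, Ereg, Hbegf, Tgfa, Egf, Btc, Epgn). They are 10 of the 52459 genes listed in the bulk table and 10 of the 31053 genes in the single-cell matrices. All tumors came from FC1242, a KPC mouse pancreatic cancer line, given as 100000 cells to C57BL/6 mice and harvested after 3 weeks. Primary tumors grew in the pancreas and liver tumors are described as metastatic; the labels name no genotype of the host, no drug and no age. Bulk RNA-seq covered 3 primary and 3 liver tumors, and 1 10x single-cell library per site was made from cells sorted for CD45, the common leukocyte antigen. The labels do not say that the 3 libraries of a site came from separate mice, so p-values measure the spread between these libraries, which may be technical. FC1242 is a single line, which limits both sites as a model.

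EGFR, ERBB2 and ERBB3 are receptor tyrosine kinases that signal as pairs. EGFR binds all 7 ligands studied here, ERBB2 has no known ligand and acts as the preferred partner, and ERBB3 binds neuregulins, has little kinase activity of its own and couples strongly to PI3 kinase. The ligands are made as membrane proteins and released by proteases such as ADAM17; activated receptors signal through RAS and the MAP kinases. Hepatocytes are a textbook site of high EGFR expression.

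Epgn, Ereg, Areg and Btc, 4 of the 7 ligand genes, lie next to each other on chromosome 5 within 375.5 kb (91027464 to 91402994 in GRCm38, GENCODE M21). Egfr is on chromosome 11 from 16752203 to 16918158, Erbb2 on chromosome 11 from 98412470 to 98437716 and Erbb3 on chromosome 10 from 128567523 to 128589652. The stretches before the starts of Egfr, the member that rose in liver tumors, and Areg, a member that fell, are printed below to set the sequences beside the opposite changes. They are the 250 bases upstream of the RefSeq start in GRCm38.p6, plus strand, at chr11:16751953-16752202 and chr5:91139349-91139598. Capitals mark matches to 5 motifs searched on both strands.
Egfr: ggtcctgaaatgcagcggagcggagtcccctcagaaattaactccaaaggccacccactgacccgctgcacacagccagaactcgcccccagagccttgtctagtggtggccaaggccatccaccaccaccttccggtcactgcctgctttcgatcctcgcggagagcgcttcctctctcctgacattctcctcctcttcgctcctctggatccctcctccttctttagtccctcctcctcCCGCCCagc
Areg: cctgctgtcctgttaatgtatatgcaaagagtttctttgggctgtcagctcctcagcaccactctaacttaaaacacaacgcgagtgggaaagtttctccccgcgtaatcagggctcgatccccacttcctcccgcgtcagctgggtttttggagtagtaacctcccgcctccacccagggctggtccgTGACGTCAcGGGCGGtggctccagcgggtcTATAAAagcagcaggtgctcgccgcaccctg
The Areg window holds a TATA box (TATAAA) that begins 31 bases before the start, a cAMP response element (TGACGTCA) 61 bases before it and a GC box (GGGCGG) 52 bases before it. The Egfr window holds a GC box on the reverse strand, printed as CCGCCC, 9 bases before the start and neither of the others. Of 32851 RefSeq promoter windows of this length, 12.4% hold TATAAA, 1.55% TGACGTCA and 32.7% GGGCGG. The AP-1 site TGANTCA (6.75% of windows) and CCAAT (33.8%) have no match in either window. RefSeq promoter windows were used for 7 of the 10 members, and none was used for Erbb3, Ereg and Hbegf. These matches describe letters only.

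Bulk libraries held between 27481390 and 36743247 reads, and 16487 genes were tested. Hepatocyte markers (11 of 11 higher in liver) summed to 141 to 586 CPM (counts scaled to a common library size) in primary and 59624 to 118552 CPM in liver tumors, so liver tissue was present in every liver library. Epithelial markers (0 higher and 3 lower of 12) summed to 4311, 12815 and 5466 CPM in primary libraries 1, 2 and 3 and to 2952 to 3273 CPM in liver libraries. Primary library 2 stands apart by that sum. Monocyte and macrophage markers (10 of 14 higher) summed to 742 to 1800 CPM in primary and 7740 to 16192 CPM in liver tumors, and fibroblast or stellate markers (6 of 9 higher) to 425 to 1037 and 1518 to 1930 CPM. In bulk tissue, fewer cells of a type and less RNA per cell cannot be told apart, and the part of these tissue differences in the members' changes was not tested except where stated.

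Among the 9 members tested in bulk, Egfr rose in liver tumors and Erbb2, Areg and Hbegf fell, while Erbb3, Ereg, Tgfa, Egf and Btc did not pass the test. Passing means an edgeR quasi-likelihood adjusted p of at most 0.05. Of all genes tested, 23% changed by the same rule, 16.7% upward and 6.26% downward. Of all calls 72.7% were upward, a share that fell to 31.2% with plain library totals, under which the members again gave 1 higher and 3 lower. With plain library totals 2110 of the 16487 genes were higher and 4646 lower, so 3 lower members stand there beside many more lower genes. The members' count (1 of 9 up, 3 of 9 down) is read against the shares of the scaling that gave it. The median log2 change was 0.49 over the 3 receptors and -0.60 over the 6 tested ligands, against -0.07 over all genes.

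Egfr had 87.9, 55.9 and 89.6 CPM in the 3 primary libraries and 832, 1161 and 607 CPM in the 3 liver libraries. Every liver library lay far above every primary one. The means were 77.8 ± 19.0 and 866 ± 279 CPM (SD, n = 3 each), an 11.1-fold rise (log2 change 3.48, SE 0.34, edgeR adjusted p = 0.000213). The hepatocyte marker sum moved with it. Erbb4, the fourth receptor of the family and a neuregulin receptor, had 0 reads in all primary libraries and 18, 90 and 63 reads in the liver libraries, at least 73.1-fold higher with 3 reads over the primary group as the floor.

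Erbb2 had 105, 193 and 113 CPM in primary and 46.9, 45.7 and 65.3 CPM in liver libraries. The sites did not overlap, and primary library 2, the one with the most epithelial marker RNA, was the highest. Its mean fell from 137 ± 48.5 to 52.6 ± 11.0 CPM (SD, n = 3 each), 2.60-fold lower (log2 change -1.38, SE 0.28, edgeR adjusted p = 0.0102). Without liver library 2 the change was -1.28 and no longer passed (edgeR adjusted p = 0.0617).

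Erbb3 had 47.6, 204 and 64.3 CPM in primary and 148, 180 and 115 CPM in liver libraries. All liver libraries exceeded primary libraries 1 and 3 but not primary library 2. The change did not pass (log2 change 0.49, SE 0.51, 95% interval -0.69 to 1.66, edgeR adjusted p = 0.528). Primary library 2 decided this: without it Erbb3 rose by 1.40 on the log2 scale (edgeR adjusted p = 0.00464).

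Hbegf encodes heparin-binding EGF, the ligand that also serves as the diphtheria toxin receptor in primates. It had 77.0, 95.9 and 89.3 CPM in primary and 45.8, 37.5 and 53.0 CPM in liver libraries, with no overlap. The mean fell from 87.4 ± 9.59 to 45.4 ± 7.78 CPM (n = 3 each, SD; log2 change -0.94, SE 0.19, edgeR adjusted p = 0.0101). Without liver library 2 it was -0.82 and did not pass (edgeR adjusted p = 0.0618).

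Areg encodes amphiregulin, a low-affinity EGFR ligand made by epithelia and some leukocytes. It had 21.5, 28.6 and 37.6 CPM in primary and 14.5, 14.3 and 18.3 CPM in liver libraries, again with no overlap. The mean went from 29.2 ± 8.03 to 15.7 ± 2.25 CPM (n = 3 each, SD; log2 change -0.89, SE 0.25, edgeR adjusted p = 0.0346). Of the members' calls it was lost most often: it did not pass without primary library 3 (-0.67, edgeR adjusted p = 0.118), liver library 1 (-0.87, edgeR adjusted p = 0.0984) or liver library 2 (-0.83, edgeR adjusted p = 0.152).

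The other ligands overlapped between sites. Btc (betacellulin, which binds EGFR and ERBB4) had 52.7, 45.8 and 70.6 CPM in primary and 25.3, 39.6 and 60.4 CPM in liver libraries (log2 change -0.43, 95% interval -1.17 to 0.31). Tgfa, transforming growth factor alpha, had 36.5, 58.8 and 33.1 CPM against 31.8, 49.0 and 40.3 CPM (-0.08, interval -0.70 to 0.54). Ereg, the EGFR and ERBB4 ligand epiregulin, had 17.9, 16.2 and 21.6 CPM against 9.77, 15.7 and 17.0 CPM (-0.39, interval -0.99 to 0.21). Each of these intervals includes both no change and a fall. Egf, the founding ligand, stayed between 0.99 and 2.53 CPM in all libraries (-0.78, interval -1.66 to 0.11), and Epgn (epigen) had 2 to 5 reads per library and was not tested. Where exons overlap a gene on the opposite strand, as for Erbb2 (Mien1), Egf (Gm42697, 6330410L21Rik), Ereg (Gm19610) and Tgfa (Gm43917), reads of the pair cannot be told apart, because strand-specific counting is not given in the sources used here.

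**Figure D1:**
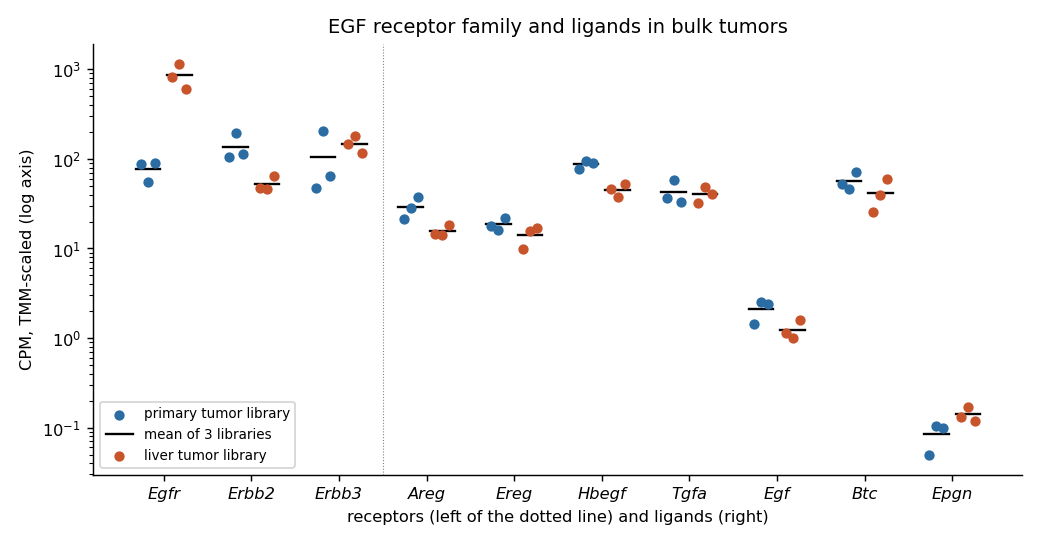
Bulk level of each member in CPM scaled by TMM (log axis) in the 3 primary and 3 liver libraries; each point is a library and each line the mean. Egfr lies above its primary values in all 3 liver libraries, Erbb2, Areg and Hbegf lie below, and primary library 2 gives the high Erbb3 point at 204 CPM.

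Scaled to length (FPKM), the order of the members differed between sites. In primary tumors Hbegf was highest at 36.5 ± 4.04 FPKM, followed by Erbb2 (26.1 ± 9.47), Areg (23.8 ± 6.26), Erbb3 (17.4 ± 14.4) and Btc (12.3 ± 2.64; SD, n = 3 throughout). Each neighboring pair from Hbegf down to Btc had overlapping SDs, and Egfr (6.8 ± 1.62) and Tgfa (6.54 ± 2.20) did not differ beyond their spread. In liver tumors Egfr led at 77.1 ± 26.4 FPKM, ahead of Erbb3 (24.7 ± 5.91), Hbegf (19.2 ± 2.91), Areg (13.0 ± 1.64), Erbb2 (10.1 ± 1.93) and Btc (9.25 ± 3.80). There the SDs of Erbb3 and Hbegf, of Areg and Erbb2, and of Erbb2 and Btc overlapped. Ereg (4.46 ± 0.607 and 3.45 ± 0.939 FPKM), Egf and Epgn closed the order at both sites.

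Beside the summed epithelial markers of the same library the picture changed for the members that fell. Per 1000 CPM of these markers, Erbb2 had 24.3, 15 and 20.7 CPM in primary and 14.3, 14.4 and 22.1 CPM in liver libraries, so the sites overlapped. Hbegf (7.48 to 17.9 in primary, 11.8 to 17.9 in liver) and Areg (2.23 to 6.87 and 4.44 to 6.20) overlapped too. Erbb3 did not overlap on this scale: 11.0, 15.9 and 11.8 in primary against 45.1, 56.5 and 39.0 in liver libraries. Egfr (4.36 to 20.4 against 205 to 364), Tgfa (4.59 to 8.46 against 9.72 to 15.4) and the barely counted Epgn were also apart. On this scale 57% of all genes tested were higher and 0.57% lower in liver without overlap, so 4 of 10 members higher is not a result about the members. On the CPM scale the shares were 23.8% and 20.2%. This ratio was chosen after the values were seen and has no test. It uses markers listed for 1 cell class and does not adjust for liver tissue. Of these markers, Krt8 and Krt18 were at 1720 and 1462 CPM in the 12 hepatocyte-like cells of the liver single-cell library. Epithelial cells there had 3744 and 3837 CPM. The sum may therefore hold RNA of liver tissue, which was not tested.

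Of the genes around the receptors, 4 rose and 7 fell, with 31 lower under plain library totals, where 4646 of all genes were lower. Beside each list stand the shares over all genes given above, 16.7% higher and 6.26% lower, and 36.7% with an unadjusted p under 0.05. Of the 8 ligand shedding genes 0 rose and 1 fell (2 had an unadjusted p under 0.05): Rhbdf1, which encodes an iRhom that helps ADAM17 mature, dropped from 86.8 ± 8.68 to 48.0 ± 8.0 CPM (n = 3 each, SD; log2 change -0.86, edgeR adjusted p = 0.0139), while Adam17 itself had a change of -0.18 (SE 0.18). Of the 19 adaptors and RAS to MAP kinase genes 1 rose and 1 fell: Sos1, an exchange factor that loads RAS, by 0.73 (SE 0.20) and Mapk3 (ERK1) by -0.85 (SE 0.23). Apart from Erbb4, 0 genes of the list of ERBB4 and neuregulins changed (3 of 5 tested), and Nrg1, the main ERBB3 ligand gene, had 6.89 ± 2.93 and 8.79 ± 3.14 CPM (SD, n = 3 each). Nrg1 was named after its values were seen. The call of Rhbdf1 was lost without liver library 2 (edgeR adjusted p = 0.0861), and that of Mapk3 without primary library 3 (0.0650), liver library 1 (0.0700) or liver library 2 (0.142). Sos1 lost its call without any 1 of primary libraries 1 and 3 and liver libraries 2 and 3, and with plain library totals its change was 0.27 (edgeR adjusted p = 0.333).

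Feedback inhibitors went both ways: 2 of 18 rose and 1 fell. Errfi1 (MIG6), which binds and blocks the EGFR kinase, had 144, 233 and 160 CPM in primary and 848, 873 and 491 CPM in liver libraries (log2 change 2.04, SE 0.32, edgeR adjusted p = 0.00257). Lrig3, a membrane protein related to the receptor-degrading LRIG1, went up from 0.429 ± 0.246 to 8.70 ± 2.39 CPM (n = 3 each, SD; 4.33, SE 0.52, edgeR adjusted p = 0.000695). Neither gene overlapped between sites, and both moved in the direction of the hepatocyte markers. Spry1, an inhibitor of RAS signaling, fell by 0.65 on the log2 scale (SE 0.20, edgeR adjusted p = 0.0474), a call kept without liver library 3 but lost without any 1 of the other 5 libraries.

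Of 16 immediate-early and ETS target genes 0 rose and 4 fell, and 8 had an unadjusted p under 0.05, as did 36.7% of all genes. The list's median log2 change was -0.54, against -0.07 over all genes. Plaur (the urokinase receptor) fell from 210 ± 48.5 to 105 ± 17.7 CPM (SD, n = 3 each), Ier3 from 78.5 ± 24.2 to 33.6 ± 8.88 CPM, Fos from 70.4 ± 67.7 to 13.8 ± 1.70 CPM and Fosb from 7.52 ± 4.17 to 2.35 ± 1.05 CPM. The edgeR adjusted p-values were 0.0180, 0.0202, 0.0287 and 0.0444. Primary library 2 gave the high Fos value at 148 CPM against 25.2 and 37.8 CPM. The call of Fosb was lost without any 1 of primary libraries 2 and 3 and liver libraries 1 and 2, and that of Fos without any 1 of the liver libraries. The calls of Ier3 and Plaur were lost without liver library 1 (edgeR adjusted p = 0.0589 and 0.0510) or liver library 2 (0.0889 and 0.0995), and that of Ier3 also without primary library 3 (0.0587). Without the filter on low counts Fos had an edgeR adjusted p of 0.145.

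**Figure D2:**
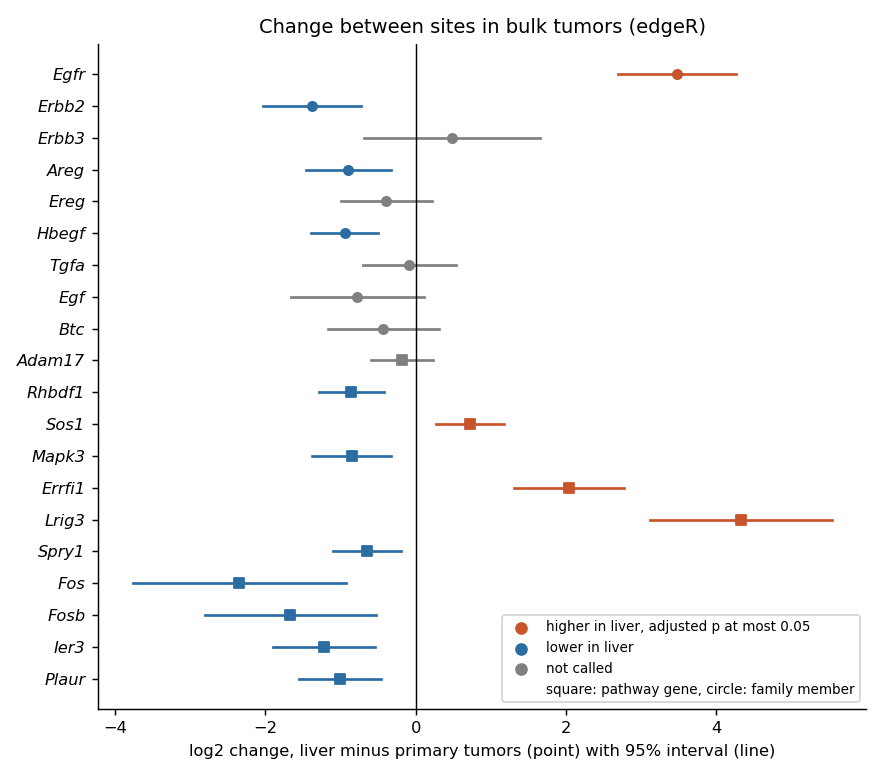
Log2 change of liver against primary tumors (point) with its 95% interval (line) for the tested members (circles) and named pathway genes (squares); red and blue mark genes called higher and lower in edgeR, grey those not called. Egfr (3.48), Lrig3 (4.33) and Errfi1 (2.04) lie far to the right; Erbb4 is left out because its primary libraries have 0 reads.

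Of the single-cell barcodes, 2270 (primary) and 7533 (liver) passed (at least 1500 UMIs, at most 10% mitochondrial UMIs, doublets removed). With 1 library per site there is no test, and intervals cover counting error only (exact, 95%). The sort was for CD45+ cells, yet 321 primary (14.1%) and 3492 liver cells (46.4%) were epithelial tumor cell-like, with Krt8 at 3199 and 3744 CPM and Ptprc, the CD45 gene, at 8.50 and 15.1 CPM. This name is not firm for all of them. In a finer clustering, a cluster of 80 primary and 1221 liver cells, mostly of this class, stayed unnamed. Another, of 121 and 630 cells, was named cholangiocyte-like (score 0.51, against 0.37 for epithelial tumor cell markers). Monocyte or macrophage-like cells (1497 and 3065) had Ptprc at 494 and 279 CPM and came mostly from different clusters at the sites: cluster 2 held 885 primary cells and cluster 0 held 3007 liver cells. The size of the primary macrophage-like class changed with the UMI minimum, as given in the closing section. Neutrophil-like cells numbered 222 and 509. The 7 passing barcodes found in both libraries made no difference of note (epithelial Hbegf 202 against 199.8 CPM and Areg 53.8 against 53.4 CPM in the primary library without and with them).

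The epithelial cells of the single-cell libraries and the bulk tumors did not match in every marker, although the labels name the same line for both. Epcam was at 145 and 104 CPM in the epithelial cells but at 0.381 to 5.45 CPM in every bulk library, where Krt8 reached 672 to 2424 CPM. Epcam was concentrated in the smaller of 2 epithelial clusters, at 277 and 190.3 CPM in cluster 4 (58 primary and 353 liver cells) and at 10.5 and 51.9 CPM in cluster 1 (264 and 3150 cells). Xist, the noncoding RNA of the inactive X chromosome, was at 496 and 365 CPM in those cells, at 0.905 and 8.73 CPM in the macrophage-like cells and at 0 to 0.616 CPM in the bulk libraries. It was at 975.1 and 923 CPM in cluster 4 and at 5.73 and 29.3 CPM in cluster 1, so most epithelial cells belonged to the cluster nearer to the bulk values. By UMIs this was not so clear. Cluster 4 held 2139215 UMIs in primary and 10448310 in liver, beside 2095904 and 17404020 in cluster 1. Epithelial levels summed over UMIs therefore weigh cluster 4 more than its cell number does. Xist was singled out after its values were seen. The cause was not tested, and levels are therefore not carried from the single cells to the bulk tumors below.

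Epithelial tumor cell-like cells carried most transcripts of the family. Of the 10 members, 8 had their highest CPM there in each library among classes of at least 50 cells, the exceptions being Egf and Epgn. In primary, Egfr was higher in a smaller class that this rule leaves out, as given below. Naming each cell by its own markers reduced the count of 8 to 2 in primary and 4 in liver. With the classes as named here the same 8 exceeded the macrophage-like cells with intervals apart. How many of all genes did the same was not counted, so neither count is read as a result about the members. Epithelial cells held 93.8% and 90.1% of the Areg UMIs, 93.9% and 89.5% of Btc, 77.5% and 83.1% of Hbegf and 85.3% and 82.6% of Erbb2 in the primary and liver libraries. These shares also follow the number of epithelial cells in each library.

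**Figure D3:**
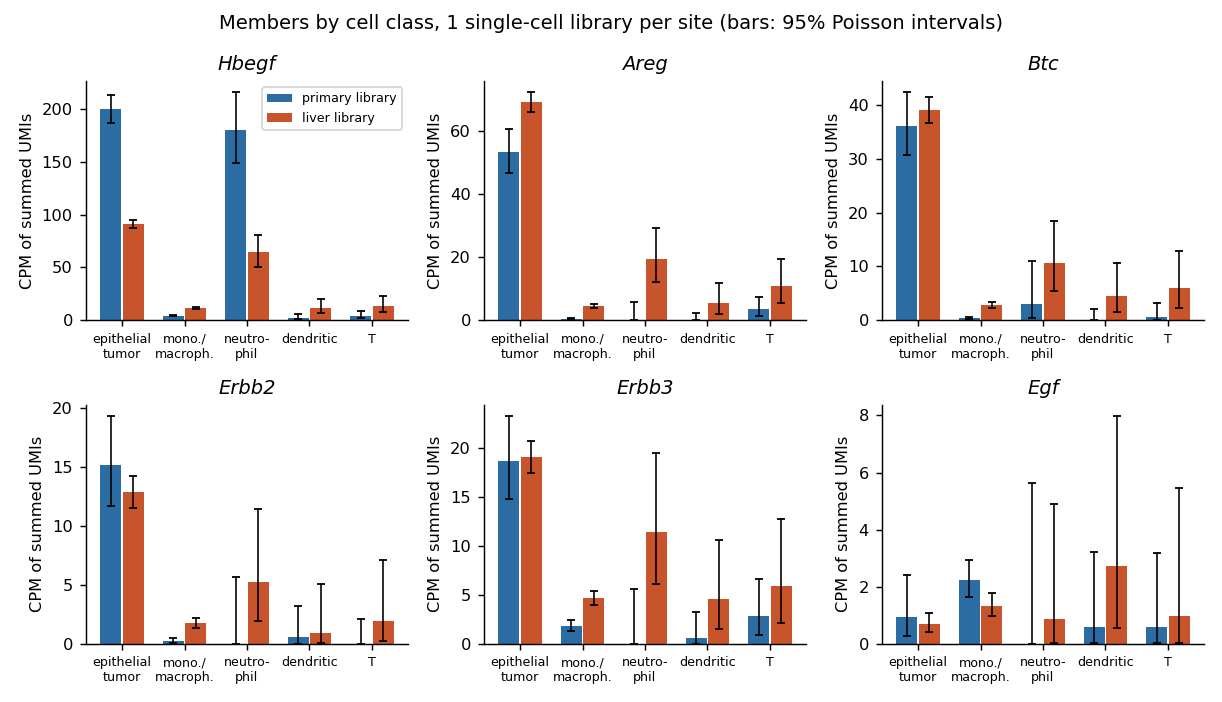
CPM of 6 members in the summed UMIs of 5 cell classes in the primary (blue) and liver (red) library; bars carry exact 95% Poisson intervals, 1 library per site. Hbegf is high in epithelial and neutrophil-like cells, Areg, Btc, Erbb2 and Erbb3 in epithelial cells, and Egf is low throughout, at 2.22 CPM in primary macrophage-like cells and 2.73 CPM, from 3 UMIs, in liver dendritic cell-like cells.

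The receptors were thinly counted. Erbb2 was at 15.1 CPM (11.6 to 19.3) in primary and 12.8 CPM (11.5 to 14.2) in liver epithelial cells, and Erbb3 at 18.7 (14.8 to 23.3) and 19.0 CPM (17.5 to 20.7). Both pairs of intervals overlap. Erbb3 was also counted in macrophage-like cells at 1.81 CPM (1.29 to 2.46) in primary and 4.63 CPM (3.95 to 5.39) in liver. Egfr was scarce in epithelial cells, with 2.60 CPM (1.3 to 4.65; 11 UMIs) and 1.80 CPM (1.33 to 2.37; 50 UMIs), and the liver value was not above the primary one.

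Most primary Egfr UMIs came from another class. The 14 fibroblast or stellate-like cells of the primary library held 52 of 66 Egfr UMIs, or 80.3 CPM (60.0 to 105), seen in 12 of the 14 cells. The name of this class is not firm. Its cluster scored 4.84 for fibroblast or stellate markers and 4.23 for mesothelial markers, and the 14 primary cells had Krt8 at 806 CPM. The 16 such cells in liver gave 4 UMIs, and the 12 hepatocyte-like cells, the only liver tissue cells called, gave 1 UMI among 34879, or 28.7 CPM with an interval of 0.726 to 160. Hepatocyte Egfr is therefore not measured with useful precision in sorted cells. Erbb4 had 0 UMIs in the called cells of both libraries.

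Hbegf was the most abundant ligand transcript in single cells and was lower in the liver library in both of its main classes. Epithelial cells had 199.8 CPM (187 to 214) in primary and 91.3 CPM (87.7 to 94.9) in liver, and neutrophil-like cells had 180.3 CPM (149 to 216) and 64.1 CPM (50.2 to 80.6). In primary the intervals of these classes overlapped. Macrophage-like cells went the other way, from 4.25 CPM (3.44 to 5.2) to 11.3 CPM (10.3 to 12.5). At a fixed depth of 1000 UMIs per cell, 11.5% of primary and 4.73% of liver epithelial cells and 13.1% and 6.09% of neutrophil-like cells held an Hbegf UMI. Without thinning these shares were 32.1% and 20.5%, and 18.0% and 10.4%; T cell-like cells, for comparison, gave 3.99 CPM in primary.

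Areg was higher in liver than in primary epithelial cells with intervals apart, whereas the intervals of Btc and Ereg overlapped. Areg had 53.4 CPM (46.7 to 60.8) and 69.3 CPM (66.2 to 72.4), and Btc 36.1 (30.6 to 42.3) and 39.0 CPM (36.7 to 41.4). Tgfa had 15.1 (11.6 to 19.3) and 9.52 CPM (8.41 to 10.7), and Ereg 6.14 (4.01 to 9.0) and 8.19 CPM (7.17 to 9.33). Areg thus differed in direction from the bulk tumors, where it fell, while Hbegf had the same direction in both; whether the assays differ was not tested. Of the Egf UMIs, macrophage-like cells held 89.1% and 66.7%, at 2.22 CPM (1.64 to 2.93) and 1.33 CPM (0.981 to 1.76). Epgn had 0 UMIs in the primary and 5 in the liver cells.

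Low values in leukocytes were set beside epithelial RNA found in the same cells. Keratin transcripts (Krt8, Krt18 and Krt19) were at 74.6 CPM in primary and 607 CPM in liver macrophage-like cells and at 270.4 and 2728 CPM in neutrophil-like cells. Per 1000 keratin UMIs, liver Areg was 7.12 (6.81 to 7.45) in epithelial, 7.30 (6.21 to 8.52) in macrophage-like and 7.08 (4.44 to 10.7) in neutrophil-like cells, and liver Btc was 4.01, 4.47 and 3.86. The leukocyte intervals of Areg and Btc thus include the epithelial ratio in the liver library, and the part of free RNA in these values was not tested. In the primary library Areg was 7.32 in epithelial and 5.45 (2.49 to 10.4) in macrophage-like cells. Primary T cell-like cells had 90.9 (33.4 to 198, from 6 UMIs), above the epithelial ratio.

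Hbegf, Erbb3 and Egf did not keep that ratio. Hbegf per 1000 keratin UMIs was 27.4 (25.6 to 29.3) in primary epithelial cells, 57 (46.0 to 69.7) in macrophage-like and 667 (552 to 798) in neutrophil-like cells; in liver the values were 9.39, 18.7 and 23.5. Erbb3 was 2.56 (2.03 to 3.19) in primary epithelial and 24.2 (17.3 to 33.0) in macrophage-like cells, and 1.96 and 7.62 in liver. Egf was 0.130 and 29.7 in primary and 0.0702 and 2.19 in liver. Erbb2 and Egfr also exceeded the epithelial ratio in liver macrophage-like cells with intervals apart. Erbb2 was 2.83 (2.17 to 3.63) against 1.32 (1.19 to 1.46). Egfr was 0.867 (0.522 to 1.35) against 0.185 (0.137 to 0.244). In the primary library their intervals overlapped between these classes. Barcodes of 10 to 100 UMIs, taken here as free RNA, had Hbegf at 71.5 and 58.4 CPM, Areg at 15.9 and 25 CPM and Egf at 0. Erbb3 was at 5.29 (0.641 to 19.1) and 4.17 CPM (0.505 to 15.1) in them. The macrophage-like values of Erbb3 (1.81 and 4.63 CPM) lie within these intervals, and those of Hbegf (4.25 and 11.3 CPM) lie below the free RNA level. The liver neutrophil value of 64.1 CPM for Hbegf lies within the free RNA interval (38.8 to 84.4 CPM). The primary value of 180.3 CPM lies above its own (47.1 to 104 CPM). Ptprc was at 927 CPM in liver neutrophil-like cells against 230 CPM in free RNA, so these cells hold RNA of their own. The share of free RNA in a class was not measured, so a class level beside the free RNA level cannot tell free RNA from expression. Alb was at 545 and 415 CPM in the barcodes of 10 to 100 UMIs. It was at 0.0452 and 9.48 CPM in macrophage-like and at 0 and 16.7 CPM in neutrophil-like cells. In primary those barcodes held 206 Alb UMIs and the called cells 1, so their RNA need not be that found in cells. The part of free RNA was not tested.

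**Figure D4:**
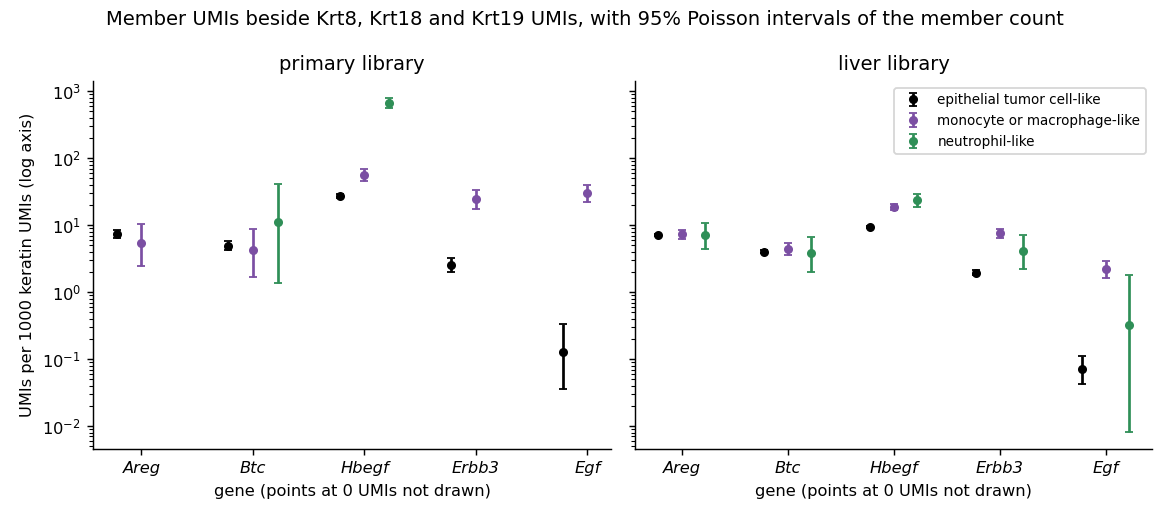
UMIs of 5 members per 1000 UMIs of Krt8, Krt18 and Krt19 (log axis) in epithelial, macrophage-like and neutrophil-like cells of each library, with 95% Poisson intervals of the member count; classes with 0 UMIs are not drawn. Areg and Btc keep about 1 ratio across liver classes (7.08 to 7.30 for Areg), while primary neutrophil-like Hbegf stands at 667.

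The epithelial cells fell into 2 clusters that differed in depth and in these genes. Cluster 4 (58 primary and 353 liver cells, a median of 22945 and 29400 UMIs per cell) and cluster 1 (264 and 3150 cells, 4114 and 3260 UMIs) were formed from all genes, and Areg is among the genes that lead cluster 4, so the difference between clusters is a description. Cluster 4 is also the cluster with high Xist and Epcam described above, which sets it further from the bulk tumors than cluster 1. In the liver library Areg was at 154 CPM in cluster 4 and 18.2 CPM in cluster 1, Hbegf at 186 and 34.3 CPM, Btc at 80.0 and 14.4 CPM, Erbb3 at 36 and 8.91 CPM and Erbb2 at 24.7 and 5.69 CPM. The primary library had the same order for each of these genes. Within cluster 4, Hbegf was higher in primary (331 CPM, 307 to 356) than in liver (186 CPM, 178 to 194) and Areg lower (92.6 CPM, 80.1 to 106, against 154 CPM, 147 to 162). Within cluster 1, Hbegf was again higher in primary (65.8 CPM against 34.3 CPM).

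**Figure D5:**
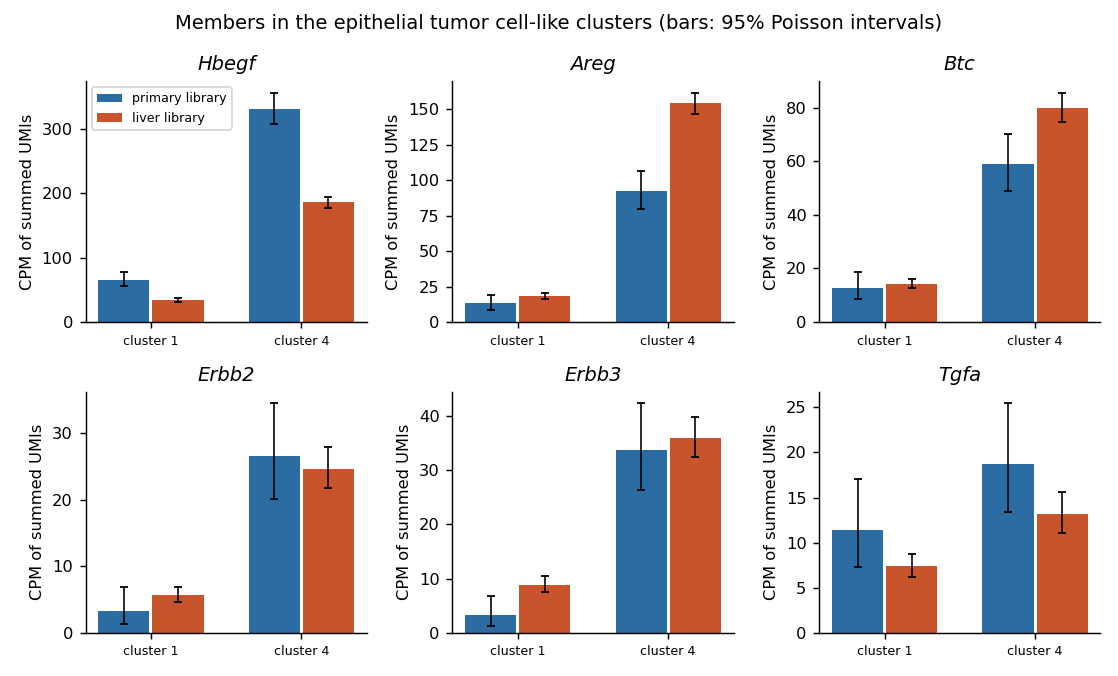
CPM of 6 members in epithelial clusters 1 and 4 of the primary (blue) and liver (red) library, with exact 95% Poisson intervals and 1 library per site. Each member is higher in cluster 4, Hbegf is higher in primary in both clusters (331 against 186 CPM in cluster 4), and Areg is higher in liver in cluster 4.

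Pathway genes named in bulk were set beside the members in single cells. Errfi1, higher in bulk liver tumors, was lower in liver epithelial cells (84.9 CPM against 302 CPM in primary) and was at 545 CPM (328 to 851, from 19 UMIs) in the hepatocyte-like cells. Fos was at 150.0 and 47.2 CPM and Ier3 at 272 and 88.7 CPM in primary and liver epithelial cells, lower in liver as in bulk. The same held in neutrophil-like cells, with 2788 and 1679 CPM for Fos and 4124 and 1540 CPM for Ier3. Plaur went from 326 to 85.2 CPM in macrophage-like cells. Nrg1 was mainly in primary macrophage-like cells, at 26 CPM (23.9 to 28.2) against 5.29 CPM (4.57 to 6.10) in liver, where the class came from another cluster.

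The genes whose pattern was most like each member were found by Pearson correlation of log2(CPM + 10) over 11 sums of a class in a library, which share their library and depth. They were Lurap1l (r = 0.989), Cavin2 and Pcbd1 for Areg, Hnf4a (r = 0.991), Misp and Tnks1bp1 for Btc, and F3 (r = 0.967), Mpp5 and Gnai3 for Hbegf. Erbb2 was nearest to Rdh10 (r = 0.983), Erbb3 to Vps72 (r = 0.975), Tgfa to Nbl1 (r = 0.982) and Egf to Tmcc3 (r = 0.898). F3, nearest to Hbegf, also led cluster 4. In bulk, F3 fell in liver tumors by 0.82 on the log2 scale (SE 0.19, edgeR adjusted p = 0.0183).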

How the data were processed

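The authors deposited raw read counts and FPKM for 6 bulk libraries and UMI counts for all 6794880 barcodes of each single-cell library. Aligner, counting tool and strandedness of the bulk libraries are not given in the sources used here; per the submitters' processing notes bcl2fastq, Cell Ranger and mm10 were used. Members and gene lists were chosen with earlier results of these data known.

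Counts were fitted in edgeR 4.0.16 (R 4.3.3) with filterByExpr, TMM factors and a robust quasi-likelihood test on site, two-sided, Benjamini-Hochberg adjusted over 16487 genes at 0.05. CPM use TMM-scaled totals. The deposited FPKM served only to compare levels between genes. The fit was tested on simulated data. Named genes were the 10 members, up to 4 called genes per list by p-value, and Adam17, with the 3 genes of most similar pattern per member. One further gene of the rule is not reported here. The authors' normalized table was not used.

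Cells (at least 1500 UMIs and 200 genes, at most 10% mitochondrial UMIs) were freed of Scrublet doublets (7 primary, 85 liver, marked after a log transform chosen because the default marked almost none) and clustered together in scanpy 1.11.5 (2000 variable genes, 30 components, 15 neighbors, Leiden resolution 0.2). Of barcodes with 1500 UMIs, 69.5% (primary) and 39.1% (liver) exceeded the mitochondrial limit. Clusters were named from marker lists; clusters at resolution 1 that scored over 2 kept their own name. Both resolutions were chosen after seeing the data. UMIs were summed per class. Alternatives are given in the closing section.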

Additional observations from a re-analysis of the deposited data

How the results depend on the processing

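Each alternative that kept all 6 bulk libraries gave 1 member higher and 3 lower. Scaling moved the rest: plain library totals shifted the median of all genes by -0.45 on the log2 scale and the share of higher calls from 72.7% to 31.2%, with 4646 genes and 31 pathway genes lower. DESeq2 gave 11 pathway genes and 1567 genes lower, and limma on log2(FPKM + 1) 2 pathway genes higher.

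Leaving out 1 library gave 1 to 2 members higher and 0 to 3 lower, 3 to 7 pathway genes higher and 0 to 12 lower, and 1810 to 3346 genes higher and 134 to 1468 lower. The 0 lower members and pathway genes came without liver library 2 (edgeR); 2 members were lower without primary library 3 or liver library 1. The log2 change of Tgfa ranged from -0.24 to 0.22, positive without primary library 2 (0.22) or liver library 1 (0.05). Why it moved was not tested. Of the 10 members, 6 to 8 kept their place in the primary FPKM order and 8 to 10 in the liver order.

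With the replicate number as a block, 1 member was higher and 3 lower, 2703 genes were higher and 873 lower; Spry1 lost its call (-0.66, edgeR adjusted p = 0.0738). Same-numbered libraries deviated with correlations of -0.20, 0.28 and 0.10, and not every library correlated best with its own number, so they were not treated as paired.

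Naming each cell by its own markers left 2 members highest in epithelial cells in primary and 4 in liver, with 51 and 127 cells named cholangiocyte-like (the cause of the lower counts was not tested), and put 1 member lower in epithelial than in macrophage-like cells in liver. Of the CPM by class over all alternatives, 58 moved beyond their interval and 612 did not. The naming of primary cells depended on the UMI minimum. As reported, 1497 were macrophage-like and 15 acinar-like. A minimum of 1000 UMIs gave 763 and 763, and a minimum of 3000 UMIs gave 526 and 891. Values of the primary macrophage-like class rest on a name that this cutoff changes. Keeping coarse names only, an alternative chosen after seeing the data, gave 8 and 8. Receptor UMIs are too few for differences between sites to be seen in most classes.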
